A study of Mus musculus with 20 samples.

Results

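Triglyceride synthesis and storage was followed through 10 genes: G0s2, Dgat1, Dgat2, Pnpla2, Plin2, Lpl, Pparg, Gpam, Lpin1 and Angptl4. All probe sets whose only gene symbol was one of these names were taken, which gave 16 probe sets. All 10 genes were on the array, out of 12393 genes with a probe set of their own, and all 10 passed the filter on low values that left 8068 genes for testing. The tissue was the left lobe of the lung from C57Bl6 embryos, with 1 microarray of total RNA per animal. The mutants, called GRCol1-Cre, are labelled as lacking the glucocorticoid receptor (GR, gene Nr3c1) in mesenchymal cells, because a Cre transgene on a bacterial artificial chromosome that carries the collagen type (I)-alpha-2 locus removes the floxed gene there. The controls carry the GR flox allele, and their mesenchymal cells express GR. There were 5 E16.5 mutants, 5 E16.5 controls, 5 E18.5 mutants and 5 E18.5 controls. The whole lobe was measured, so each value mixes mesenchymal with epithelial, endothelial and blood cells.

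Triglyceride is built on a glycerol backbone. The acyltransferase Gpam adds the first fatty acid, the phosphatase Lpin1 makes diacylglycerol, and Dgat1 and Dgat2 add the last fatty acid. The product is kept in lipid droplets that are coated by Plin2. The lipase Pnpla2 (also called ATGL) starts its breakdown, and the small protein G0s2 inhibits that lipase. Lpl frees fatty acids from lipoproteins outside the cell, Angptl4 inhibits Lpl, and the nuclear receptor Pparg drives storage genes in fat-storing cells. In the fetal lung of rodents, lipofibroblasts are interstitial cells that hold such droplets and pass lipid to alveolar type II cells, which use it for surfactant.

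Values are log2 units of the authors' GCRMA table, and a difference on this scale is a log2 fold change. A value under 4 is called dim, and a gene was called at a limma adjusted p under 0.05 over all genes tested (Benjamini-Hochberg). The brightest probe set stands for a gene unless another is named. Levels were compared between groups of one probe set and never between probe sets. Nr3c1 itself had 30.4% of the control level in E16.5 mutants (log2 difference -1.72, SE 0.17, adjusted p = 1.66e-05) and 32.5% in E18.5 mutants (-1.62, SE 0.17, adjusted p = 1.62e-06). Whether its probe set reads the floxed exon is not known here. From Xist and Y-linked genes, 5 of 5 E16.5 mutants, 1 of 5 E16.5 controls, 2 of 5 E18.5 mutants and 3 of 5 E18.5 controls were female, so that sex and genotype largely coincide at E16.5. On an axis from the mean E16.5 control (0) to the mean E18.5 control (1) over all genes, E18.5 mutants lay at 0.452 to 0.769. E18.5 control replicate 3 lay at 0.704 on that axis and the other E18.5 controls at 1.02 to 1.09, and E16.5 control replicate 5 lay at 0.211. E18.5 values are also given without control replicate 3 where that changed a call or where this control lay apart in the gene. In a whole lobe, fewer cells of a type and less RNA per cell cannot be told apart.

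G0s2 fell in the mutants at both stages and was the gene with the smallest p of all 8068 at E16.5. The 5 E16.5 mutants read 8.14, 7.80, 8.41, 8.05 and 8.36, against 9.70, 10.44, 9.87, 10.20 and 10.55 in the E16.5 controls. Each mutant was at least 1 log2 unit below the lowest control. The mean was 8.15 ± 0.25 in E16.5 mutants and 10.15 ± 0.36 in E16.5 controls (SD, n = 5 each), a log2 difference of -2.00 (SE 0.15, 95% interval -2.31 to -1.68, adjusted p = 4.14e-07), or 25.1% of the level in controls. At E18.5 the mutants read 9.29, 9.38, 9.16, 8.80 and 9.18, against 10.92, 11.11, 10.96, 10.97 and 10.94 in the controls. The groups again did not overlap, with means of 9.16 ± 0.22 in the mutants and 10.98 ± 0.07 in the controls. The difference was -1.82 (SE 0.15, adjusted p = 9.37e-08), with 28.4% of the control level in mutants. Without E18.5 control replicate 3 it was -1.82. With sex as a covariate it was -2.03 at E16.5 (adjusted p = 2.49e-05) and -1.81 at E18.5. Within females it was -2.40 at E16.5 (5 mutants, 1 control) and -1.85 at E18.5 (2 mutants, 3 controls), and within E18.5 males -1.82 (3 mutants, 2 controls).

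Pnpla2, the lipase that G0s2 inhibits, was not called at E16.5 and fell in the mutants at E18.5. The E16.5 mutants read 6.91, 7.09, 7.26, 6.95 and 7.49, against 7.19, 6.85, 7.31, 7.26 and 7.25 in the E16.5 controls. These groups overlapped, and the difference of -0.03 had an interval of -0.26 to 0.20 (adjusted p = 1). At E18.5 the mutants read 7.79, 7.59, 7.79, 7.53 and 7.83, against 8.46, 8.47, 8.25, 8.22 and 8.41 in the controls. All 5 mutants lay below all 5 controls, with a difference of -0.66 (SE 0.11, adjusted p = 0.000198), or 63.3% of the level in controls. A second Pnpla2 probe set was dim on all 20 arrays, at 2.01 to 2.10, and gave no usable level.

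G0s2, Pnpla2 and Lpin1 fell at E18.5, as did Gpam, whose stretches are not printed, and Dgat2 and Lpl, for which none was matched. The stretches just before the start sites of G0s2, of the lipase it inhibits and of Lpin1, described below, are printed here. Each is the 250 bases before the RefSeq start on GRCm38.p6, 5′ to 3′ along the strand of the gene, and capitals mark a match to the GR core letters AGAACA on either strand.
G0s2, chr1:193273189-193273438, minus strand: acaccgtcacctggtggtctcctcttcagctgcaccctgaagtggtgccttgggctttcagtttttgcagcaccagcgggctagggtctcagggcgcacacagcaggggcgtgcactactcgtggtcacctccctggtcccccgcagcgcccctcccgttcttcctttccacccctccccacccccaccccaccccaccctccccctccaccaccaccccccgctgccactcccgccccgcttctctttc
Pnpla2, chr7:141454938-141455187, plus strand: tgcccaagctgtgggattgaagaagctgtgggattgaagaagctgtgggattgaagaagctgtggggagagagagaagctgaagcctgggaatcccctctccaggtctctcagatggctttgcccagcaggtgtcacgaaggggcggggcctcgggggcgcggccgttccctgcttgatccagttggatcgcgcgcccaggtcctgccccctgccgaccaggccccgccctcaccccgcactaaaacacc
Lpin1, chr12:16610967-16611216, minus strand: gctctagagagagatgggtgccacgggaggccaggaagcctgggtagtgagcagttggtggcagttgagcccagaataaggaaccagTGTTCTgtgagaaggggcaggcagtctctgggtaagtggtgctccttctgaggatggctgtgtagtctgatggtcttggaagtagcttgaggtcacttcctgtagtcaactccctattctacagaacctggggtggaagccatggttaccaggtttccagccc
RefSeq windows were matched for 6 of the 10 genes (9 windows in all). Both strands were searched for the core letters AGAACA of a GR site, which the full GR site, searched as well, contains. The core matched 1 of the 9 windows, that of Lpin1, where it begins 163 bases before the start, and 16.1% of all 32851 windows of this length. The full GR site matched 0 of the 9 windows and 0.00913% of all, and the site of PPAR with RXR matched 0 and 0.0335%. For C/EBP factors, TTGCGCAA matched 0 windows and 0.164% of all, and the looser TTNNGNAA, which contains it, matched 1 window, of Pparg, and 36.8% of all. The E-box CACGTG matched 0 windows and 6.02% of all windows. The TATA box letters TATAAA matched 1 window, of Pparg, and 12.4% of all windows. These letters describe a short window and say nothing on sites elsewhere.

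**Figure D1:**
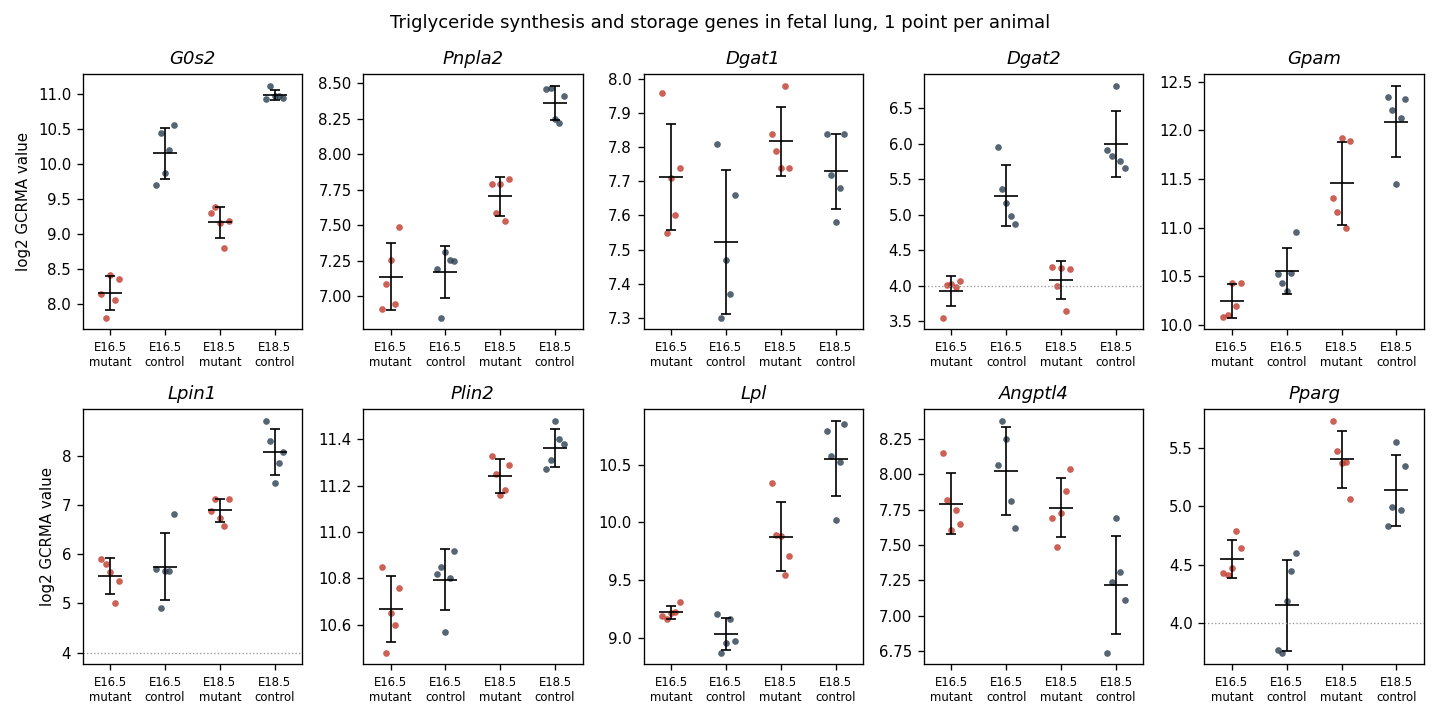
Log2 GCRMA values of the brightest probe set of each of the 10 genes (vertical axis, own scale per panel), with 1 point per animal, E16.5 mutants, E16.5 controls, E18.5 mutants and E18.5 controls from left to right. Bars are the mean and SD of 5 animals, red points are mutants, dark points are controls, and the dotted line marks the value of 4 below which a reading is called dim. The mutants lie below all controls of their stage in G0s2 and Dgat2 at both stages, and in Pnpla2 and Lpin1 at E18.5.

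Of the final acyltransferases, Dgat2 fell at both stages and Dgat1 was not called at either. Dgat2 read 3.55, 4.01, 4.03, 3.98 and 4.07 in E16.5 mutants, against 5.95, 5.36, 5.16, 4.98 and 4.87 in E16.5 controls. Every mutant lay below every control. The log2 difference was -1.34 (SE 0.21, interval -1.78 to -0.89, adjusted p = 0.00571). The mutant mean of 3.93 is itself dim, so the size of this difference is less sure than its direction, and with dim readings raised to 4 it was -1.24. With sex as a covariate it was -0.95 and not called (adjusted p = 0.140, against 0.000267 to 0.0285 under the other alternatives). Within females it was -0.94 (5 mutants, 1 control). At E18.5 the mutants read 4.26, 4.0, 4.25, 3.65 and 4.24, against 5.91, 5.83, 6.81, 5.76 and 5.66 in the controls. The groups did not overlap, and the difference of -1.91 (SE 0.21, adjusted p = 2.76e-06) put the mutants at 26.5% of the controls. Without E18.5 control replicate 3, which had the highest value, it was -1.71. With dim readings raised to 4 it was -1.84. Of the mutants, 3 of 5 at E16.5 and 4 of 5 at E18.5 read above 4, and all controls did.

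The second Dgat2 probe set was dim in all mutants. It read 2.89, 2.80, 2.79, 1.95 and 2.64 in E18.5 mutants, against 4.11 to 4.47 in the E18.5 controls. This is at least a 1.25-fold difference when the mutants are set to 4. Second probe sets were fitted by limma over 12517 probe sets. The one of Dgat2 passed the filter only through controls, so its p is not given. At E16.5 it read 1.95 to 2.60 in mutants and 3.09 to 4.09 in controls, with only 1 control above 4, and no fold is given. Dgat1, the other enzyme of this step, averaged 7.71 ± 0.16 in E16.5 mutants and 7.52 ± 0.21 in E16.5 controls, a difference of 0.19 (interval -0.01 to 0.39, adjusted p = 1). At E18.5 it averaged 7.82 ± 0.10 in mutants and 7.73 ± 0.11 in controls, a difference of 0.09 (interval -0.11 to 0.29, adjusted p = 0.501), or 0.05 without control replicate 3. Both intervals for Dgat1 include 0 and lie mostly above it.

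Lpin1 and Gpam, which act at earlier steps of synthesis, fell at E18.5 and were not called at E16.5. Lpin1 read 6.89, 7.13, 6.74, 6.58 and 7.13 in E18.5 mutants, against 8.72, 8.31, 7.45, 7.86 and 8.08 in E18.5 controls. No mutant reached the lowest control, and the difference of -1.19 (SE 0.28, adjusted p = 0.00302) put the mutants at 43.9% of the controls. Without E18.5 control replicate 3, the lowest control, it was -1.35. The second Lpin1 probe set differed by -1.46 (SE 0.36, adjusted p = 0.00453). At E16.5 Lpin1 read 5.91, 5.80, 5.65, 5.0 and 5.45 in mutants and 5.70, 4.90, 5.66, 5.66 and 6.82 in controls, which overlapped (difference -0.19, interval -0.77 to 0.39, adjusted p = 1).

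Gpam read 11.30, 11.16, 11.92, 10.999 and 11.89 in E18.5 mutants, against 12.34, 12.21, 11.45, 12.13 and 12.32 in E18.5 controls. The controls other than replicate 3 lay above every mutant, and replicate 3 lay among the mutants. The difference was -0.64 (SE 0.19, adjusted p = 0.0139), or -0.80 (adjusted p = 0.00123) without that control. It was not called when the fit held only the 10 E18.5 arrays (adjusted p = 0.0539). Within sexes the difference was -1.18 in females (2 mutants, 3 controls) and -0.13 in males (3 mutants, 2 controls), where the males include control replicate 3. The second Gpam probe set differed by -0.91 (SE 0.24, adjusted p = 0.00692). At E16.5 Gpam averaged 10.25 ± 0.17 in mutants and 10.56 ± 0.24 in controls, a difference of -0.31 (interval -0.71 to 0.08, adjusted p = 1).

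Plin2, the droplet coat protein, was not called in mutants at either stage, and the limits on its difference were narrow. It averaged 10.67 ± 0.14 in E16.5 mutants and 10.80 ± 0.13 in E16.5 controls, a difference of -0.13 (interval -0.28 to 0.03, adjusted p = 1). At E18.5 it averaged 11.24 ± 0.07 in mutants and 11.36 ± 0.08 in controls, a difference of -0.12 (interval -0.28 to 0.04, adjusted p = 0.223). The 5 E18.5 mutants read 11.33, 11.25, 11.16, 11.18 and 11.29, of which 3 lay below the lowest control.

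The extracellular lipase and its inhibitor moved in opposite directions at E18.5. Lpl read 10.34, 9.89, 9.88, 9.54 and 9.71 in E18.5 mutants, against 10.79, 10.57, 10.02, 10.52 and 10.85 in E18.5 controls. Only control replicate 3 fell into the range of the mutants. The difference was -0.68 (SE 0.14, adjusted p = 0.00133), or -0.81 without that control. Within sexes it was -1.01 in females (2 mutants, 3 controls) and -0.32 in males (3 mutants, 2 controls, replicate 3 among them). The second Lpl probe set differed by -0.86 at E18.5 (SE 0.16, adjusted p = 0.000659). At E16.5 Lpl read 9.16 to 9.31 in mutants and 8.87 to 9.20 in controls, a difference of 0.19 (interval -0.11 to 0.49, adjusted p = 1).

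Angptl4 read 7.69, 7.49, 7.73, 7.88 and 8.04 in E18.5 mutants, against 6.74, 7.24, 7.69, 7.31 and 7.11 in E18.5 controls. It was the single gene of the 10 that rose, by 0.55 (SE 0.17, adjusted p = 0.0160), with 3 of 5 mutants above all controls. Without control replicate 3 the rise was 0.66 (adjusted p = 0.00278), and without control replicate 1, the lowest, it was 0.42 and not called (adjusted p = 0.0548). Within sexes it was 0.63 in females and 0.35 in males. At E16.5 the difference was -0.23 (interval -0.58 to 0.11, adjusted p = 1). A second Angptl4 probe set was dim on all 20 arrays.

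Pparg, the receptor that drives storage genes, was not called at either stage. It read 4.43, 4.41, 4.47, 4.79 and 4.64 in E16.5 mutants, against 3.77, 3.75, 4.19, 4.45 and 4.60 in E16.5 controls, a difference of 0.39 (interval 0.04 to 0.75, adjusted p = 0.976). At E18.5 it averaged 5.40 ± 0.24 in mutants and 5.13 ± 0.30 in controls, a difference of 0.26 (interval -0.09 to 0.62, adjusted p = 0.242). Both estimates were above 0, and 2 of 5 E16.5 controls were dim. With dim readings raised to 4 the E16.5 difference was 0.30. Without E18.5 control replicate 3, the highest control, the E18.5 difference was 0.37 (adjusted p = 0.0875).

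**Figure D2:**
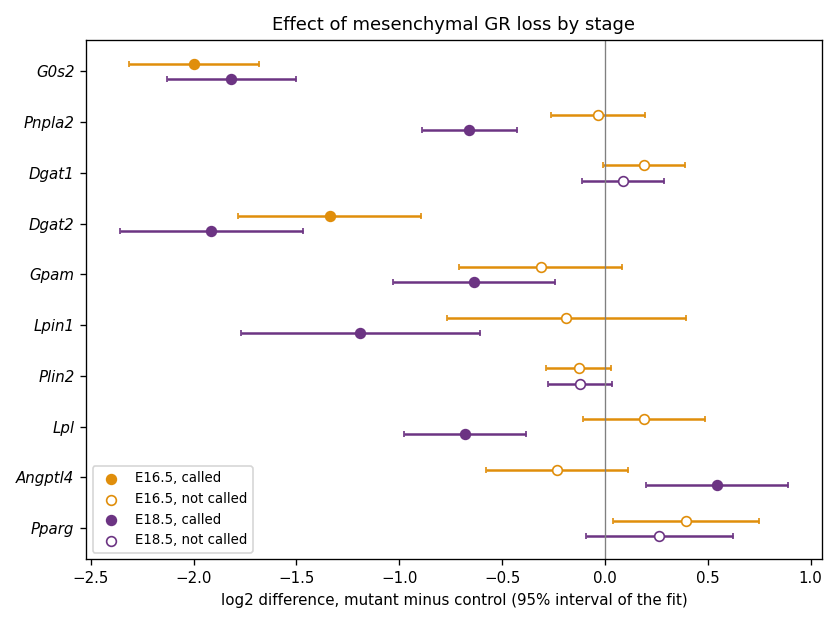
Log2 difference, mutant minus control, for each of the 10 genes (horizontal axis, points with the 95% interval of the limma fit) at E16.5 (orange) and E18.5 (purple), where filled points were called. G0s2 and Dgat2 lie between -2.00 and -1.34 at both stages, Pnpla2, Gpam, Lpin1 and Lpl lie below 0 and were called at E18.5, and Angptl4 lies at 0.55 at E18.5.

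In all, 2 of the 10 genes were lower and 0 higher in E16.5 mutants, where 0.248% of all genes tested were called, 0.198% lower and 0.0496% higher. At an unadjusted p under 0.05 the count was 3 of the 10 and 356 of all genes. At E18.5, 6 were lower and 1 was higher, where 34.5% of all genes were called, 15.9% lower and 18.6% higher. The median difference over the 10 genes was -0.16 at E16.5, against 0.01 over all genes tested, and -0.65 at E18.5, against 0.03. At E18.5, 4 of the 10 (G0s2, Dgat2, Pnpla2 and Lpin1) had mutants wholly below the controls, as did 9.13% of all genes, and at E16.5 this held for G0s2 and Dgat2 and for 0.657% of all genes. Genes called lower at both stages made up 0.174% of those tested, and G0s2 and Dgat2 were among them. The 10 genes were listed with earlier results of these arrays known, so these counts are a description of the list.

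The mutant effect itself differed between the stages for 3 of the 10 genes, by the interaction term of the fit. For Lpl the effect at E18.5 minus that at E16.5 was -0.87 (SE 0.20, adjusted p = 0.0131), and the second probe set gave -0.99 (adjusted p = 0.0145). For Pnpla2 it was -0.63 (SE 0.16, adjusted p = 0.0183), and for Angptl4 0.78 (SE 0.23, adjusted p = 0.0464). Over all genes 8.40% were called in this test, 4.78% lower and 3.62% higher. The Angptl4 call was lost under 21 of the 32 alternatives, in which the adjusted p reached 0.301, and the Lpl call was lost with sex as a covariate (adjusted p = 0.0556). The difference was not called for G0s2 (0.18, interval -0.26 to 0.63, adjusted p = 0.647), Dgat2 (-0.58, interval -1.21 to 0.05, adjusted p = 0.245), Lpin1 (-1.001, adjusted p = 0.117) or Gpam (-0.32, adjusted p = 0.489). With sex as a covariate Dgat2 gave -1.06 and was called (adjusted p = 0.0430). Both Dgat2 mutant means, 3.93 at E16.5 and 4.08 at E18.5, lay at the dim level. The control level then limits how large the mutant effect can be, so its stage difference could not be read. With dim readings raised to 4 and no sex term, the Dgat2 value was -0.60. Without E18.5 control replicate 3 Lpin1 gave -1.16 and was called (adjusted p = 0.0441), as it was without E16.5 control replicate 5 (-1.27, adjusted p = 0.0206).

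Change with stage was followed in each genotype, and these comparisons share arrays with those above. In mutants 7 of the 10 genes rose between E16.5 and E18.5 and 0 fell, where 56.2% of all genes were called, 28.7% up and 27.6% down. In controls 8 rose and 1, Angptl4, fell, where 70.9% of all genes were called, 35.3% up and 35.5% down. Lpin1 rose most in both genotypes, by 1.33 in mutants (SE 0.28, adjusted p = 0.000499) and by 2.33 in controls (SE 0.28, adjusted p = 4.99e-07). Gpam rose by 1.21 in mutants and 1.53 in controls, and Lpl by 0.65 in mutants and 1.52 in controls. Pnpla2 rose by 0.57 in mutants and 1.19 in controls. G0s2 rose by 1.01 in mutants (SE 0.15, adjusted p = 1.88e-05) and by 0.83 in controls (SE 0.15, adjusted p = 7.10e-05). Plin2 rose by 0.57 in mutants and in controls, and Pparg by 0.85 in mutants and 0.98 in controls. With dim readings raised to 4 the Pparg rise was 0.85 in mutants and 0.89 in controls. Dgat2 rose by 0.73 in controls (adjusted p = 0.00494), and was not called in mutants (0.15, interval -0.29 to 0.60, adjusted p = 0.559), where both means, 4.08 at E18.5 and 3.93 at E16.5, lay at the dim level and a change in level could not be read. Angptl4 fell by 0.81 in controls (adjusted p = 0.000250), and its change in mutants was -0.03 (interval -0.38 to 0.32, adjusted p = 0.891). Dgat1 was not called in mutants (0.11, adjusted p = 0.364) or in controls (0.21, adjusted p = 0.0609), but was called in controls without E18.5 control replicate 3 (0.25, adjusted p = 0.0357).

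**Figure D3:**
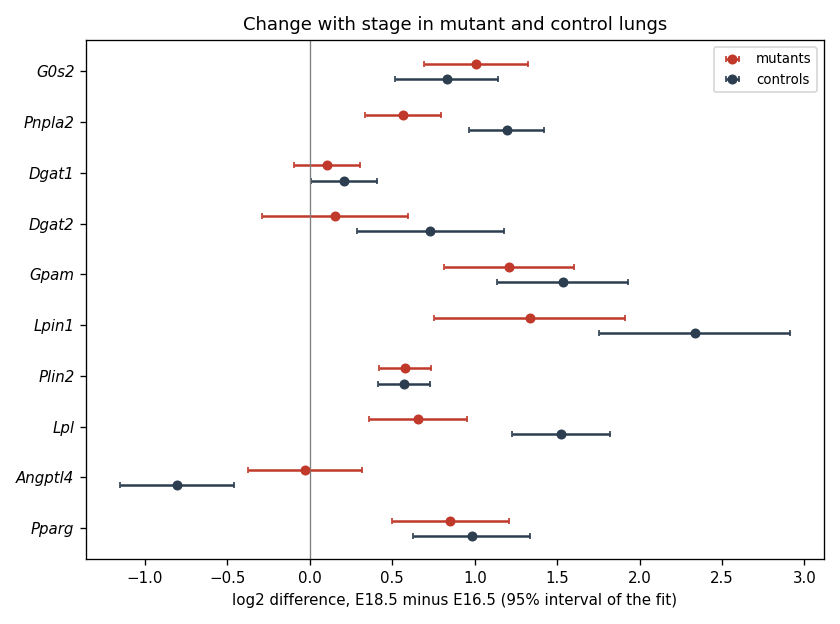
Log2 difference, E18.5 minus E16.5, for each of the 10 genes (horizontal axis, points with the 95% interval of the limma fit) in mutants (red) and controls (dark). Lpin1, Lpl and Pnpla2 rise by 1.33, 0.65 and 0.57 in mutants and by 2.33, 1.52 and 1.19 in controls, while Plin2 rises by 0.57 in both.

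Setting E18.5 mutants against E16.5 controls, a comparison added after the values were seen in which stage and genotype cannot be told apart, divided the 10 genes. G0s2 (-0.99, SE 0.15, adjusted p = 2.89e-05) and Dgat2 (-1.18, SE 0.21, adjusted p = 0.000149) were still lower in E18.5 mutants than in controls 2 days younger. Over all genes 52.4% were called in this comparison, 24.7% lower and 27.6% higher. Pparg (1.25), Lpin1 (1.14), Gpam (0.90), Lpl (0.84), Pnpla2 (0.53), Plin2 (0.45) and Dgat1 (0.30) were higher in the E18.5 mutants, and Angptl4 was not called (-0.26, adjusted p = 0.194). The groups therefore stood in a different order for different genes. For G0s2 the order of means from low to high was E16.5 mutants, E18.5 mutants, E16.5 controls and E18.5 controls, and each neighbouring pair differed by the fit. For Dgat2 the order of means was the same, but E16.5 and E18.5 mutants were not called apart. Both of these means lay at the dim level, where a change could not be read. For Lpl, Lpin1, Gpam and Pnpla2 both E16.5 groups came lowest and did not differ from each other by the fit, then E18.5 mutants, then E18.5 controls.

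Among themselves the 10 genes moved together in part. Over 45 pairs the median Pearson r of log2 values over the 20 arrays was 0.471, and the median r of deviations from the group means was 0.075. The arrays share stage and genotype in the first measure and 5 animals per group in both, so these are descriptions. Within groups the highest r was 0.555 for Pnpla2 with Gpam and 0.524 for Plin2 with G0s2, and the lowest -0.602 for Angptl4 with Lpl and -0.593 for Angptl4 with Lpin1. Of all genes tested outside the list, Nr3c1 itself had the pattern most like that of G0s2 over the 20 arrays (r = 0.950). The closest gene was Lox for Dgat2 (r = 0.881), Rab3d for Pnpla2 (0.975), Sash1 for Lpin1 (0.967), Tmem50b for Gpam (0.986) and S1pr1 for Lpl (0.965). It was Acadvl for Plin2 (0.974), Wdr45b for Angptl4 (0.914), Tekt1 for Pparg (0.903) and Mfhas1 for Dgat1 (0.897). By deviations from the group means the closest were Kctd14 for G0s2 (0.901), Slc38a10 for Dgat2 (0.823), Wdfy1 for Pnpla2 (0.821), Sash1 for Lpin1 (0.880), Tmem71 for Gpam (0.957) and Ivd for Lpl (0.786). For the other 4 they were Cggbp1 for Plin2 (0.822), Wdr45b for Angptl4 (0.848), Hlx for Pparg (0.853) and Foxj3 for Dgat1 (0.845). By either measure, each closest gene was picked as the highest r out of all genes tested outside the list. Such picked maxima run high over 20 arrays even without any relation. They were not tested and do not show that the genes vary together.

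E18.5 control replicate 3 was the lowest or the highest E18.5 control in 8 of the 10 genes. It lay within the range of the E18.5 mutants in 4 of them, Lpl, Gpam, Angptl4 and Pparg. It was not near the mutants in G0s2 (10.96, against 8.80 to 9.38 in the mutants) or Dgat2 (6.81, against 3.65 to 4.26). Without this animal the same counts of 6 lower and 1 higher were obtained at E18.5, where 3355 of all 8068 genes were called, against 2784 with it.

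Other genes of the same pathway came from lists of textbook pathway members. These lists were chosen with earlier results of these arrays known, so the counts below are a description of them. Their counts stand beside 34.5% of all genes called at E18.5, 15.9% lower and 18.6% higher, and beside 0.248% called at E16.5. In such short lists a share near these is no result about the list. A count of 0 at E16.5 therefore does not show that a list was unchanged. Counts without E18.5 control replicate 3 stand beside 3355 of all 8068 genes called, against 2784 with it. Of the other glycerolipid synthesis genes, 10 of 18 were on the array and 5 were tested, with 0 called in E16.5 mutants and 2 lower in E18.5 mutants. These were Agpat3 (-0.52, SE 0.10, adjusted p = 0.000582), an acyltransferase of the second step, and Lclat1 (-0.35, SE 0.11, adjusted p = 0.0179). Their median was -0.32 at E18.5. The other 3 were not called, with Lpin2 at -0.32 (adjusted p = 0.0802), Agpat5 at -0.13 (adjusted p = 0.307) and Gpat4 at -0.04 (adjusted p = 0.762). Lpin2 was called without E18.5 control replicate 3 (-0.45, adjusted p = 0.00581). At E16.5 Lclat1 was at -0.13 and Agpat5 at 0.08. Of the fatty acid uptake and activation genes, 10 were tested, with 0 called at E16.5 and 2 lower at E18.5, the scavenger receptor Cd36 (-1.12, SE 0.37, adjusted p = 0.0241) and the carrier Fabp5 (-0.78, SE 0.22, adjusted p = 0.0115). Cd36 averaged 10.52 ± 0.56 in E18.5 mutants and 11.63 ± 0.29 in E18.5 controls, with no overlap. At E16.5 the largest values were Fabp3 at 0.73 and Fabp5 at -0.52.

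Of 10 other lipolysis genes tested, 0 were called at E16.5 and 3 were lower at E18.5. Abhd5, the coactivator of Pnpla2, was at -0.70 (SE 0.15, adjusted p = 0.00188), the lysosomal lipase Lipa at -0.33 (SE 0.08, adjusted p = 0.00478) and the monoglyceride lipase Mgll at -0.29 (SE 0.10, adjusted p = 0.0297). Mgll was not called without E18.5 control replicate 3 (-0.22, adjusted p = 0.0707), and Cpt1a, which brings fatty acids into mitochondria, was (-0.51, adjusted p = 0.000955). Lipe, the hormone-sensitive lipase, was dim on all arrays. At E16.5 Abhd6 was at 0.20. Ubxn8, which was counted in this list without a check of its role in lipolysis, was at -0.20. Of 7 other lipid droplet genes tested, 0 were called at E16.5 and 4 were lower at E18.5. Hilpda, a droplet protein that inhibits Pnpla2, was at 6.95 ± 0.17 in E18.5 mutants and 7.79 ± 0.31 in E18.5 controls (-0.84, SE 0.15, adjusted p = 0.000428), with no overlap. Hsd17b11 (-0.33), Bscl2 (-0.29), which takes part in droplet assembly, and Aup1 (-0.15) were the others, while Hsd17b11 was at -0.10 and Hilpda at 0.08 at E16.5. The droplet list had 3 lower and 1 higher without E18.5 control replicate 3, since Aup1 was not called (-0.14, adjusted p = 0.0649) and Rab18 was higher (0.19, adjusted p = 0.0195). The median of the droplet list at E18.5 was -0.15, and Plin4, Plin5, Cidea, Cideb and Cidec were dim on all arrays. Among 8 tested partners of Lpl and other lipoprotein genes, 0 were called at E16.5, where Apoe was at 0.24 and Vldlr at -0.23. At E18.5 the protease Pcsk6 was higher (1.26, SE 0.36, adjusted p = 0.0106), and Apoe (-0.50, SE 0.11, adjusted p = 0.00149) and the receptor Vldlr (-0.47, SE 0.17, adjusted p = 0.0346) were lower. Vldlr was not called with sex as a covariate (adjusted p = 0.0506), and without E18.5 control replicate 3 the protease Furin was lower as well (-0.27, adjusted p = 0.0158).

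Among transcription factors and coactivators of lipid storage, 14 were tested. At E16.5, 0 were called. Klf15 was at -0.63, and Zbtb16 was dim in all mutants and above 4 in 1 of 5 controls, so that no fold is given. At E18.5, 5 were lower. Klf9 averaged 10.08 ± 0.29 in E18.5 mutants and 11.999 ± 0.301 in E18.5 controls (-1.92, SE 0.18, adjusted p = 2.93e-07). Cebpd, a C/EBP factor of early fat cell formation, was at -1.72 (SE 0.16, adjusted p = 2.76e-07) and Klf15 at -2.41 (SE 0.38, adjusted p = 0.000112). Zbtb16 was dim in all E18.5 mutants and above 4 in 4 of 5 controls, at least a 2.96-fold difference. Only controls were above 4, so it passed the filter only through them and its call is no further support. The fifth was Nr1h3, the liver X receptor alpha (-1.01, SE 0.24, adjusted p = 0.00362). Ebf1 was called too without E18.5 control replicate 3 (-0.31, adjusted p = 0.0475). The median of this list was -0.25 at E18.5, and Ppara and Ppard, the other PPAR receptors, were dim on all arrays.

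Of 9 further PPAR target genes tested, 1 was lower at E16.5, the mitochondrial thiolase Acaa2 (-0.35, SE 0.07, adjusted p = 0.0174). At E18.5, 4 were lower and 1 was higher. Acaa2 averaged 10.43 ± 0.08 in E18.5 mutants and 10.84 ± 0.12 in E18.5 controls, with no overlap (-0.41, adjusted p = 0.000147). Pdk4, the kinase that restrains pyruvate oxidation, was dim in all E18.5 mutants, at least 4.25-fold lower than in controls. It was above 4 only in the E18.5 controls, so it passed the filter only through them and its call is no further support. Cyp4b1 was at -1.73 (SE 0.26, adjusted p = 8.70e-05) and Acadm at -0.38 (SE 0.09, adjusted p = 0.00355). The gene that was higher was Acot1 (0.25, SE 0.07, adjusted p = 0.0110). With sex as a covariate 0 genes of these pathway lists were called at E16.5, Acaa2 included.

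**Figure D4:**
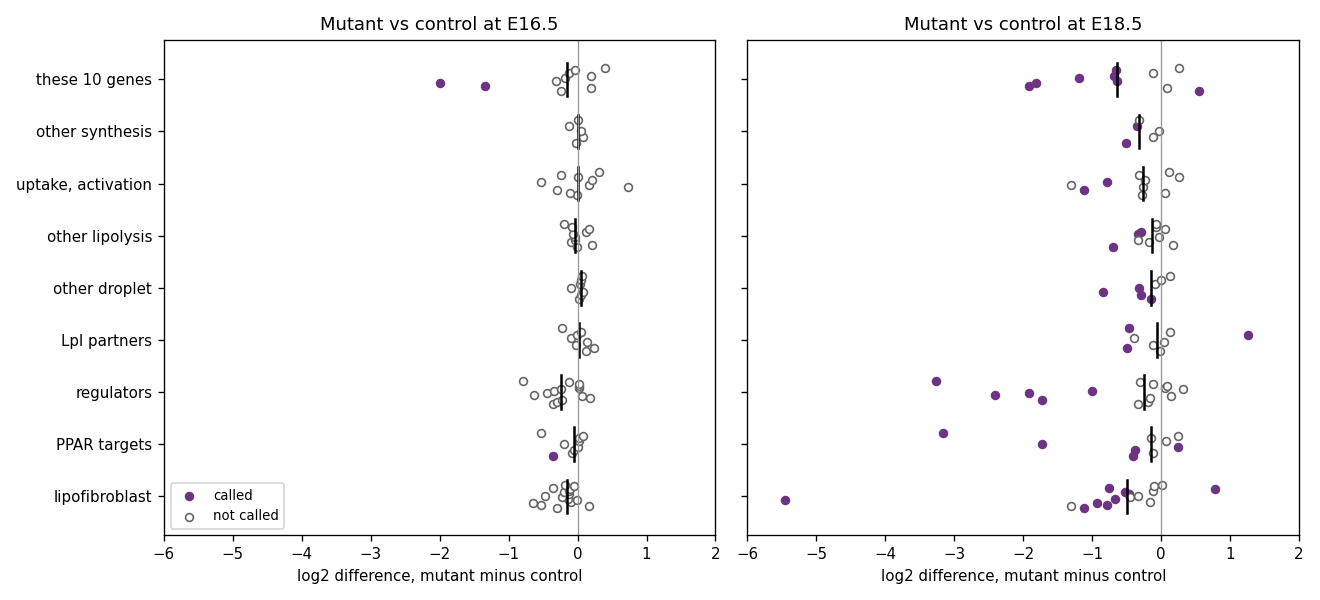
Log2 difference, mutant minus control, of every tested gene in the 10-gene list and in 8 related lists (rows) at E16.5 (left panel) and E18.5 (right panel). Filled points were called, open points were not, Inmt, Pdk4 and Zbtb16 are drawn at their fitted values although dim in mutants, and black ticks are list medians, which run from -0.24 to 0.05 at E16.5 and from -0.65 to -0.07 at E18.5.

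Markers of cells that could carry these transcripts, from lists chosen in the same way, were read beside the 34.5% of all genes called at E18.5. At E16.5 that share was 0.248%. The list of 16 lipofibroblast markers tested contains Plin2. It also shares Cd36, Fabp4 and Fabp5 with the fatty acid uptake list and Pdgfra with the general mesenchymal list. Calls of these genes recur between lists and are not separate. Of the 16, 0 were called at E16.5, where Fgfr4 was at -0.65 and Fabp5 at -0.52. At E18.5, 8 were lower and 1 was higher, with a median of -0.49. Fgfr4 was at -0.93 (SE 0.18) and Cd36 at -1.12. Inmt was dim in all E18.5 mutants, at least 17.9-fold lower than in controls. It was above 4 only in the E18.5 controls, so it passed the filter only through them and its call is no further support. The parathyroid hormone receptor Pth1r rose by 0.79 (SE 0.15, adjusted p = 0.000569). Without E18.5 control replicate 3, 11 of the 16 were lower and 1 was higher, where 3355 of all 8068 genes were called, against 2784 with it. The transcription factor Tcf21 was at -0.76 (SE 0.09, adjusted p = 1.10e-05). General mesenchymal markers had 1 lower (Pdgfra, -0.52) and 1 higher (Meox2, 0.40) of 12 at E18.5 (median -0.08), and their mean per array was 9.13 to 9.38 in E18.5 mutants and 9.13 to 9.68 in E18.5 controls.

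Endothelial markers had 8 lower of 11 at E18.5 (median -0.47), or 9 without E18.5 control replicate 3. Their mean per array was 9.47 to 9.70 in E18.5 mutants and 9.87 to 10.12 in E18.5 controls, so the groups did not overlap. The lipofibroblast list did not overlap either, at 9.22 to 9.56 in E18.5 mutants and 9.695 to 10.19 in E18.5 controls. Nor did the regulator list (6.22 to 6.45 against 6.54 to 7.04) or the PPAR target list (6.54 to 6.66 against 6.82 to 7.07). Type II cell markers had 1 lower (Lyz2, -1.24) and 1 higher (Etv5, 0.59) of 12, with a median of -0.37 and means per array of 11.43 to 12.22 in E18.5 mutants and 11.96 to 12.40 in E18.5 controls. Sftpd, a surfactant protein, was called as well without E18.5 control replicate 3 (-1.39, adjusted p = 0.0349). Macrophage markers averaged 5.996 to 6.505 in E18.5 mutants and 6.23 to 6.43 in E18.5 controls, with 1 higher of 9 (Aif1, 0.70), and 1 lower without E18.5 control replicate 3 (Cx3cr1, -0.26, adjusted p = 0.0482). General epithelial markers had 3 higher (Sox9, Epcam and Foxa2) and 2 lower (Krt19 and Krt8) of 9. Cardiac markers had 2 higher (Myl3 and Myl2) and 1 lower (Ryr2) of 10, red cell markers 2 lower (Hbb-y and Alas2) of 4, and liver markers 0 called of 2. All 7 adipocyte markers on the array, among them Adipoq, Retn and Lep, were dim in all 20 animals. So were Nkx2-1 of the epithelial list, Hba-a1 of the red cell list and Fgf10 of the lipofibroblast list. Being dim on all arrays, here and for the genes named above, therefore does not show that a transcript is absent. At E16.5, 0 markers of any of these cell lists were called, where 0.248% of all genes were called. A count of 0 in such short lists does not show unchanged markers. An unadjusted p under 0.05 in the limma fit was found for 4.41% of all genes at E16.5. It was found for 4 of 16 lipofibroblast, 1 of 11 endothelial, 0 of 12 general mesenchymal and 0 of 12 type II markers. The part of the endothelial and lipofibroblast shifts in the E18.5 falls of Lpl, Lpin1, Gpam and Pnpla2 was not tested.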

How the data were processed

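The deposited table holds log2 values, 1 per probe set and array, from GCRMA by the authors, per the submitters' processing notes. The version of GCRMA is unknown. Values were not transformed again. Of 22690 probe sets, 20380 name 1 gene, 691 several, 1555 none and 64 are array controls. Each gene was represented by its single-gene probe set with the highest mean, and genes above 4 in at least 5 of 20 arrays were tested.

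limma 3.58.1 (R 4.3.3; lmFit, eBayes) was run on the means of the 4 groups over all 20 arrays, two-sided, with Benjamini-Hochberg adjustment over 8068 genes. SE are from limma and SD are over 5 animals, and the number of arrays limits the precision. Array medians were 5.70 to 5.87. Replicate numbers were not taken as pairs.

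The 10 genes and all lists (220 of 256 entries matched) were chosen with earlier results of these data known. The rule for named genes took the 10 genes, Nr3c1, up to 4 called genes with the largest change per pathway list and stage (2 as values where none was called) and the closest genes by Pearson r. Called cell markers, Nr1h3, Acot1, Tcf21, genes whose call changed under an alternative, uncalled synthesis genes at E18.5, genes given only as dim and their values at a second stage were chosen after their values were seen. On simulated E18.5 data (8068 genes, 200 of them changed) the fit recovered 93% of genes changed by a log2 of 1 and 60% of those changed by 0.5, with 3.16% false calls. The simulated noise was independent between genes, and far fewer genes were changed than the 2784 called at E18.5. These rates are therefore not those of the real calls. Results were recomputed with other filters, array sets, scaling, probe sets, variance models and thresholds, with sex or replicate number as a term, and without each array in turn.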

Additional observations from a re-analysis of the deposited data

Results flagged for a closer look

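Among the 40 groups of 5 animals formed by 10 genes, 5 held an animal far from the others by Dixon's ratio, where chance gives about 1 in 20. E18.5 control replicate 3 was the highest of its group in Dgat2 (6.81, next 5.91) and the lowest in Gpam (11.45, next 12.13). E18.5 control replicate 2 was the highest in G0s2 (11.11, next 10.97). E16.5 mutant replicate 1 was the lowest in Dgat2 (3.55, next 3.98), below the dim level, and E16.5 control replicate 2 was the lowest in Pnpla2 (6.85, next 7.19). The mutant effect differed between stages, by the interaction term, in Pnpla2 (-0.63, E18.5 minus E16.5), Lpl (-0.87) and Angptl4 (0.78), but the Angptl4 call was lost under 21 of 32 alternatives (adjusted p up to 0.301) and the Lpl call with sex as a covariate (adjusted p = 0.0556).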

How the results depend on the processing

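Under the alternatives run, no called result changed direction. Genes called at E16.5 (20) numbered 9 with only the 10 arrays compared, 8 with sex as a covariate and 11 at an adjusted p under 0.01, and with sex 1 of the 10 genes was lower, G0s2, since Dgat2 was not called. At E18.5 (2784) they numbered 1645 at 0.01 and 1060 with a 1.5-fold minimum, and under each of these 0 of the 10 genes were higher. Stage changes with a 1.5-fold minimum numbered 2057 in mutants (4538) and 3171 in controls (5718), and over all probe sets 8586 in controls. Stage differences of the effect (678) numbered 403 with sex and 166 at 0.01, where 0 of the 10 genes were lower. In that test 0 of the 10 were higher with no filter, the mean of probe sets, all probe sets, sex, the replicate block or 0.01, because Angptl4 was lost. Leaving out 1 array gave 13 to 22 genes at E16.5, the 13 without E16.5 mutant replicate 4 or 5, and 0 to 1 of the 10 genes higher at E18.5. It gave 393 to 1445 stage differences, 393 without E18.5 control replicate 5 and 1445 without E18.5 control replicate 3, with 0 to 1 of the 10 higher. Counts of 408 to 450 came without E16.5 control replicate 3, E18.5 control replicate 1 or 2, E16.5 mutant replicate 4 or 5, or E18.5 mutant replicate 2 or 4. The cause of these shifts was not tested. With the replicate block 17 genes were called at E16.5 and 2943 at E18.5, and Dgat1 was called between stages in controls (0.21, adjusted p = 0.0297). Same-numbered animals correlated from -0.096 to 0.597 at E16.5 and from -0.429 to 0.208 at E18.5, and 3 of 5 mutants at E16.5 and 0 of 5 at E18.5 correlated best with the control of their own number. Numbers were not taken as pairs, since not every pair passed 0.1 and no label ties them to a shared source. Dim values near 4 limit Dgat2 and Pparg.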
